A study of Mus musculus with 6 samples.

Results

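Agr3 and 9 of its relatives in the protein disulfide isomerase (PDI) family were followed in the cerebellum of newborn mice that lack Zeb2 in neural progenitors and glia. The 10 genes were Agr3, Agr2, Txndc12, P4hb, Pdia3, Pdia4, Pdia6, Pdia5, Txndc5 and Tmx1. They were found by symbol in the deposited expression table, where each matched 1 of 23793 loci. Agr3 was chosen by its measured FPKM in these same cKO and control libraries, which an earlier look had shown to differ, so its values are given as a description with no test. The other 9 were chosen for their family, and the question was whether Agr3 appeared without them.

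RNA was sequenced from whole cerebellum at postnatal day 0. The 3 conditional knockout (cKO) libraries were Zeb2 f/f; hGFAP-cre, and the 3 control libraries were Zeb2 f/+; hGFAP-cre, so every sample carried Cre and at least 1 floxed allele, and the controls kept 1 intact allele of Zeb2. Cre was driven by the human GFAP promoter, which is active in neural progenitors and glia, and cells outside that lineage keep Zeb2. Zeb2 is a zinc finger transcription factor, and the series asks about its role in Bergmann glia, radial glial cells of the cerebellum. Nothing in the labels ties each library to its own mouse, so the p-values describe differences among libraries, which may be technical.

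PDI enzymes work in the endoplasmic reticulum (ER), where they form, break and rearrange disulfide bonds in proteins on their way to the cell surface. Each carries thioredoxin-like domains, and the oxidising power comes from partners such as the Ero1 oxidases and peroxiredoxin 4. The anterior gradient proteins Agr2 and Agr3 are small members of the family known from epithelia: Agr2 from mucus-secreting cells and Agr3, in the mouse airway, from ciliated cells. Many of the larger PDIs are made in nearly all cells.

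Agr3 lies on chromosome 12 (GRCm38, 35925620 to 35949736, plus strand) and Agr2 follows it on the same strand (35992907 to 36004087). Their promoter windows, from 250 bases before to 50 bases after the annotated start (RefSeq, GRCm38.p6), are shown because the pair are neighbours and close relatives with different levels in cKO. The Agr3 window is chr12:35925371-35925670 and the Agr2 window chr12:35992675-35992974, both on the plus strand. Capitals mark CACCTG, the E-box that Zeb proteins are known to bind, read on both strands, where its reverse complement is CAGGTG.
Agr3: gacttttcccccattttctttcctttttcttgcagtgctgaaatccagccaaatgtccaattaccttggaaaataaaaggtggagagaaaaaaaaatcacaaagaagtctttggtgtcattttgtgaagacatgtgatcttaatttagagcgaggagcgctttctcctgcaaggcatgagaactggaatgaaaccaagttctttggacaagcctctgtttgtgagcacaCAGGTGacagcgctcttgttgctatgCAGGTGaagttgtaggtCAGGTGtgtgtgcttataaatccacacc
Agr2: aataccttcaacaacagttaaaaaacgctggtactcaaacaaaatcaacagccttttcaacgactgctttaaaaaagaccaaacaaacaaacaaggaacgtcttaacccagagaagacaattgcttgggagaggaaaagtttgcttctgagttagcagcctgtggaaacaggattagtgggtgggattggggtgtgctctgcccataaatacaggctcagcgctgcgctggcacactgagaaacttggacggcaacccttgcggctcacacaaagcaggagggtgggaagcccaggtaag

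The Agr3 window held 3 copies of CAGGTG, which begin at bases -21, 6 and 23 counted from the annotated start. They do not overlap each other. No copy was found in the Agr2 window or in the windows of the other 8 members (12 windows for the 10 genes, since Txndc5 has several starts). Of all 32851 promoter windows of this length, 20.2% held at least 1 copy and 0.365% held 3 or more. A match is a description of these letters. Binding of Zeb2 was not measured in these samples.

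The libraries were checked before the family was read. Zeb2 itself (chromosome 2, 44983632 to 45117395, in a locus that the table names Mir5129,Zeb2) stood at 6.19, 3.89 and 5.81 FPKM in cKO libraries 1, 2 and 3, and at 11.4, 9.52 and 7.995 FPKM in control libraries 1, 2 and 3. FPKM divides the fragments of a locus by transcript length and by the size of the library. The groups did not overlap, at a log2 fold change of FPKM + 1, cKO minus control, of -0.77 (SE 0.18). The adjusted p was 0.107 (limma, a linear model with moderated variances, Benjamini-Hochberg over all 13612 loci tested), short of the threshold of 0.05. The groups also differed in sex-linked RNA. Xist, the RNA that silences an X chromosome in female cells, was between 141.8 and 147.5 FPKM in cKO and between 0.331 and 0.515 FPKM in controls. The Y-linked gene Eif2s3y was at 0.0270 to 0.108 FPKM in cKO and 34.5 to 37.2 FPKM in controls. Genotype and sex therefore cannot be told apart in any comparison of the family. The library cKO 3 stood apart from the other cKO libraries on the first principal component, at 0.0643 against 0.521 for cKO 1 and 0.535 for cKO 2, while the controls lay at -0.483, -0.350 and -0.287. Its Pearson's r over the tested loci was 0.9565 with control 3, against 0.9519 with cKO 1 and 0.9522 with cKO 2. By their later sample numbers, cKO 3 and control 3 were treated as a second deposit, and the other libraries as the first.

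Agr3 was present in cKO and nearly absent from controls. It measured 5.02, 7.18 and 6.99 FPKM in cKO libraries 1, 2 and 3, against 0, 0 and 0.0539 FPKM in control libraries 1, 2 and 3. The lowest cKO library, cKO 1, was far above the highest control, and cKO 3, which stood apart over the whole table, was close to cKO 2 for this gene. The group means were 6.40 ± 1.20 FPKM in cKO and 0.0180 ± 0.0311 FPKM in controls (SD, n = 3 each), a difference of 2.85 in log2(FPKM + 1). In cKO this level was modest: 29.8% of the tested loci had a lower cKO mean. Fewer cells of a type and less RNA per cell cannot be told apart in RNA of whole tissue, here or for any gene below.

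The low control value can be read in steps. Values under 0.1 FPKM moved in steps whose size differed between libraries by a fixed ratio, 1.275 for cKO 1 and 1.119 for cKO 2 relative to control 3. Those were the most common ratios among loci between 0 and 0.1 FPKM in both libraries. The fullest window, 0.06 wide in log2, held 30.4% and 30.3% of such loci. In units of the value of control 3, corrected by those ratios, Agr3 came to 73 steps in cKO 1 and 119 steps in cKO 2, each within 1e-04 of a whole number. If the step is 1 fragment, Agr3 rested on 73 fragments in cKO 1 (exact 95% Poisson interval 57.2 to 91.8), 119 in cKO 2 (98.6 to 142.4) and 1 in control 3 (0.0253 to 5.57). These intervals cover counting error only. No such reading was possible for cKO 3, which shares its step pattern with control 1, where Agr3 was listed at 0.

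That pattern was rare in the table. Only 3 of 23793 loci (0.0126%) had at most 0.1 FPKM in every control and at least 1 FPKM in every cKO library, limits that were chosen after the values were seen. They were Agr3, the microRNA locus Mir135a-1 and a locus named Hba-a1,Hba-a2 for alpha globin. Mir135a-1 measured 75.8, 33.2 and 36.4 FPKM in cKO libraries 1, 2 and 3, and was listed at 0 in every control. The globin locus measured 2.14, 1.15 and 1.56 FPKM in cKO, and was also listed at 0 in every control.

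Agr3 was chosen on these libraries, so its values within subsets of them are a description and add no support. Control 1 and cKO 3 share a step pattern among low values, and the other 4 libraries share another. In the first set Agr3 was at 6.99 FPKM in cKO and 0 in control, and in the second at 5.02 and 7.18 FPKM in cKO and at 0 and 0.0539 FPKM in controls. With any 1 of the 6 libraries left out, the difference in log2(FPKM + 1) lay between 2.77 and 2.99.

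**Figure D1:**
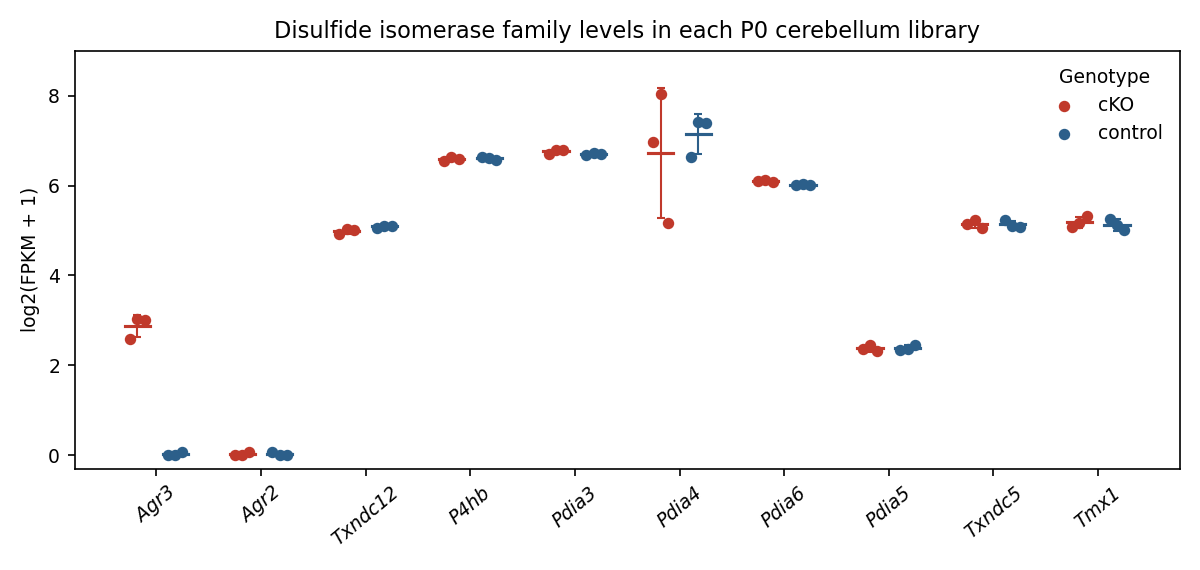
Levels of the 10 family members as log2(FPKM + 1) in each library. Points are libraries (cKO in red, left; control in blue, right), horizontal bars are group means and vertical bars SD, n = 3 each. Agr3 is the member whose groups lie far apart, Agr2 is near 0 in every library, and the groups of Pdia4 are widely spread.

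Agr2, the closest relative of Agr3 on the chromosome, did not appear with it. It was listed at 0, 0 and 0.0495 FPKM in cKO libraries 1, 2 and 3, and at 0.0459, 0 and 0 FPKM in control libraries 1, 2 and 3. Each group thus held a trace in 1 library and 0 in the other two. Corrected by the ratio of their steps, 1.079, the value of cKO 3 was 0.999 of that of control 1, which makes each 1 step by the reading above (exact 95% Poisson interval 0.0253 to 5.57). Agr2 did not reach the minimum for testing, which was 1 FPKM in at least 3 of the 6 libraries. Agr3 met that minimum only through its cKO libraries.

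The genes around Agr3 did not share its difference either. RefSeq lists 5 annotated genes on each side, and 5 of these 10 were in the table. On the upstream side only the long noncoding RNA 9130015A21Rik was present, at no more than 0.119 FPKM in any cKO library and 0.0980 FPKM in any control. Downstream of Agr2, the tetraspanin gene Tspan13 was at 97.5, 105.2 and 106.0 FPKM in cKO libraries 1, 2 and 3, and at 100.3, 89.5 and 93.9 FPKM in control libraries 1, 2 and 3. Its groups overlapped and it did not pass (log2 fold change 0.12, SE 0.06, limma adjusted p = 0.375). Bzw2, which codes for a translation regulator, averaged 121.5 ± 6.94 FPKM in cKO and 115.0 ± 1.54 FPKM in controls (SD, n = 3 each; log2 fold change 0.08, limma adjusted p = 0.53). The pseudogene Gm5434 was at no more than 0.0595 FPKM in any cKO library and 0.1002 FPKM in any control. The groups of each of these 5 neighbours overlapped.

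**Figure D2:**
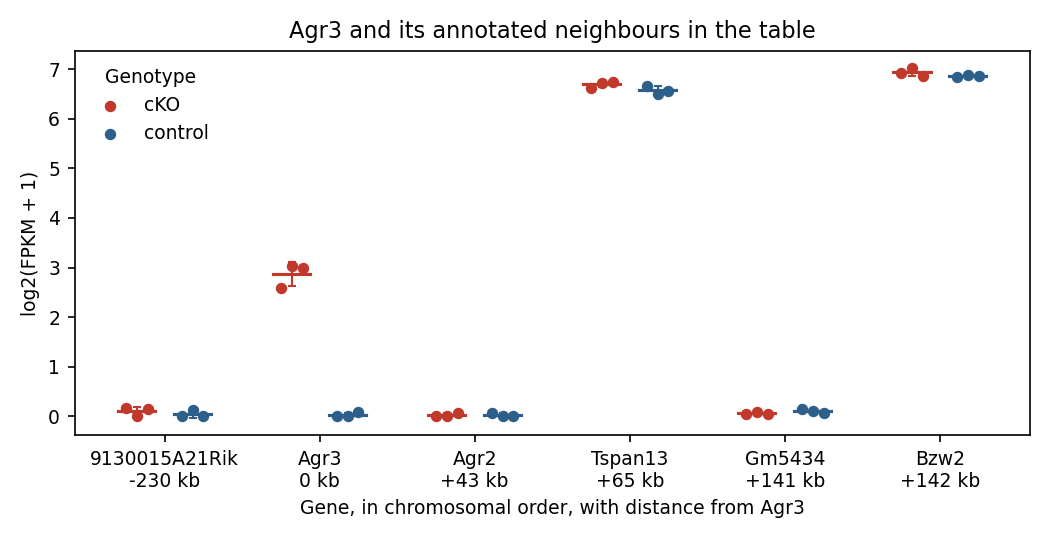
Levels of Agr3 and of its 5 measured neighbours as log2(FPKM + 1), in chromosomal order with the distance from Agr3 in kb. Points are libraries (cKO in red, left; control in blue, right), with group means and SD, n = 3 each. Tspan13 and Bzw2 are high in both genotypes, the other neighbours are near 0 in both, and Agr3 has levels above 0 in the cKO libraries.

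Of the 9 relatives, 8 were expressed well enough to be tested, and none passed at an adjusted p of 0.05 (limma, Benjamini-Hochberg over all loci). Of all 13612 tested loci, 0.573% passed. None of the 8 had a p under 0.05 before adjustment, beside 17.6% of all tested loci. With 8 genes, 0 is near that share. Their median log2 fold change was -0.00056, with 4 above and 4 below 0, beside a median of -0.0095 over all tested loci. For 7 of the 8, Pdia4 aside, the estimated change in FPKM + 1 lay between -6.89% and 5.59%, and the widest bounds of their 95% intervals were -14.4% and 20.5%.

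Txndc12 codes for a small ER thioredoxin of the same subgroup as the anterior gradient proteins. It was at 29.2, 32.0 and 31.2 FPKM in cKO libraries 1, 2 and 3, and at 32.4, 33.5 and 33.5 FPKM in control libraries 1, 2 and 3. Every cKO value was below every control value, but the gap was small (log2 fold change -0.10, SE 0.05, 95% interval -0.22 to 0.02, limma adjusted p = 0.356). Its direction was opposite to that of Agr3.

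P4hb, the founding PDI, also serves as a subunit of the collagen prolyl 4-hydroxylases. It averaged 95.6 ± 3.13 FPKM in cKO and 96.4 ± 1.81 FPKM in controls (SD, n = 3 each), with overlapping groups and a log2 fold change of -0.012 (95% interval -0.13 to 0.10). Pdia3, also called ERp57, acts on glycoproteins together with the lectin chaperones calnexin and calreticulin. It averaged 107.8 ± 3.46 FPKM in cKO and 103.2 ± 1.66 FPKM in controls, with overlapping groups (log2 fold change 0.06, 95% interval -0.05 to 0.18, limma adjusted p = 0.55).

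Pdia6, a PDI that binds the ER chaperone BiP, was the relative with the highest positive estimate. It measured 67.5, 68.4 and 66.5 FPKM in cKO libraries 1, 2 and 3, and 63.5, 64.8 and 63.2 FPKM in control libraries 1, 2 and 3. Every cKO value exceeded every control value, by little, and the gene had a narrow spread within groups, lower than that of all but 0.507% of the tested loci. It did not pass (log2 fold change 0.08, SE 0.04, 95% interval -0.02 to 0.18, limma adjusted p = 0.393). Pdia6 and Txndc12 were thus 2 of the 8 tested relatives whose groups did not overlap, in opposite directions, beside 23.9% of all tested loci.

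Pdia5 was the lowest of the tested relatives, at 4.19 ± 0.259 FPKM in cKO and 4.21 ± 0.236 FPKM in controls (SD, n = 3 each). Txndc5, or ERp46, a PDI that works with peroxiredoxin 4, averaged 34.4 ± 2.22 FPKM in cKO and 34.2 ± 2.10 FPKM in controls. Tmx1, a PDI anchored in the ER membrane, averaged 35.4 ± 3.28 FPKM in cKO and 34.0 ± 3.11 FPKM in controls. The groups of all 3 overlapped, their log2 fold changes were -0.0072, 0.0061 and 0.06, and their limma adjusted p-values were 0.971, 0.974 and 0.793.

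Pdia4, also called ERp72, could not be read with the same precision. Its locus (chromosome 6, 47796141 to 47813430) carries the name Mir704,Pdia4 in the table, because a microRNA gene lies within it. It measured 123.3, 263.6 and 35.1 FPKM in cKO libraries 1, 2 and 3, and 98.1, 169.0 and 168.0 FPKM in control libraries 1, 2 and 3. The cKO libraries held both the highest and the lowest value, so the groups overlapped fully (log2 fold change -0.42, SE 0.67, 95% interval -2.02 to 1.18, limma adjusted p = 0.793). Without cKO 3 the estimate was 0.355, the opposite sign. The within-group SD of 1.07 in log2(FPKM + 1) was higher than that of 97.0% of the 3262 tested loci with a mean of at least 30 FPKM. Median SDs were 0.0829 for those loci, 0.192 for the 105 tested loci named for a small RNA and another gene, and 1.40 for the 230 loci of small RNAs alone. Among those 105 loci, the SD of Pdia4 was higher than that of 80%. The share of the Pdia4 value that belongs to Mir704 was not tested.

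**Figure D3:**
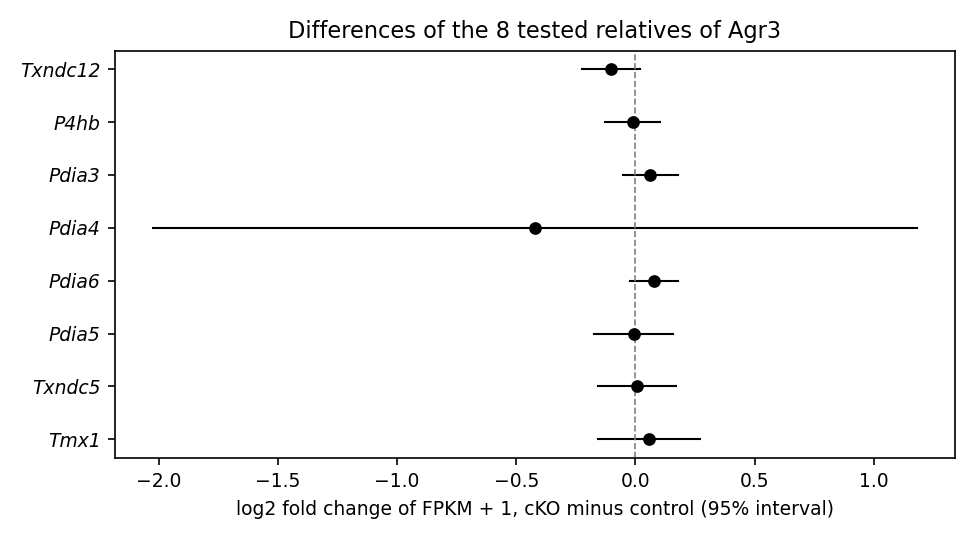
Log2 fold change of FPKM + 1, cKO minus control, of the 8 tested relatives of Agr3, with 95% intervals from limma. Every interval includes 0, and that of Pdia4 runs from -2.02 to 1.18, far wider than the others.

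**Figure D4:**
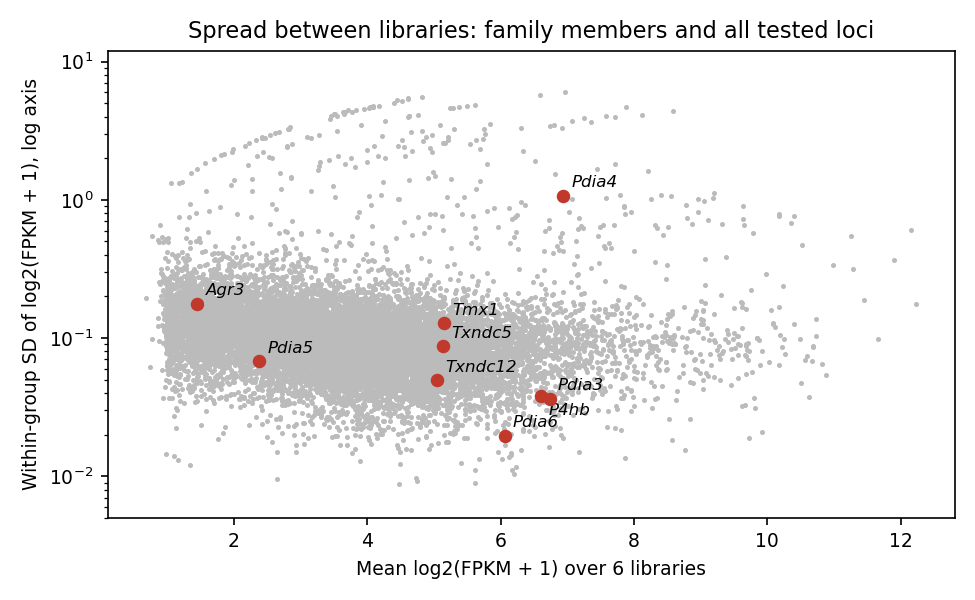
Within-group SD of log2(FPKM + 1), on a log axis, against the mean over the 6 libraries, for all tested loci (grey) and the 9 tested family members (red). Pdia6 lies at the low edge of the cloud and Pdia4, at 1.07, above most loci of its level.

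In order of level, the cKO means ran from Pdia4 at 140.6 FPKM through Pdia3, P4hb, Pdia6, Tmx1, Txndc5, Txndc12, Agr3 and Pdia5 to Agr2 at 0.0165 FPKM. Tmx1 and Txndc5 overlapped, and so did Pdia4, at 35.1 to 263.6 FPKM, with each of Pdia3, P4hb, Pdia6, Tmx1 and Txndc5. These pairs did not differ beyond their spread. Agr3 took the place above Pdia5 in cKO, with no overlap between the 2 genes' cKO values (5.02 FPKM was the lowest for Agr3 and 4.46 FPKM the highest for Pdia5). In controls it stood with Agr2 at the bottom, at means of 0.0180 and 0.0153 FPKM.

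Genes that act with the PDIs were read from 6 lists of 70 genes in all. Of these, 64 were tested, 0 passed over all loci (limma), and 14 had a p under 0.05 before adjustment, a share near the 17.6% of all tested loci. Log2 fold changes were above 0 for 39 and below 0 for 25, with a median of 0.06 beside -0.0095 over all tested loci. The 14 genes were spread unevenly: 4 higher and 1 lower of 8 Pdia3 partners, and 4 higher of 13 ER chaperones. The rest were 2 lower of 15 partners in oxidation and reduction, 1 lower of 4 P4hb partners and 2 higher of 14 unfolded protein response genes. Further PDI family genes had 0 of 10. No set test was made.

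Of 14 further PDI family genes, 10 were tested and 0 passed, 5 above and 5 below 0, with a median log2 fold change of 0.02. The smallest p-values belonged to Txndc15, Erp29 and Casq2. Erp29, an ER protein with a thioredoxin fold, averaged 86.3 ± 1.26 FPKM in cKO and 83.2 ± 1.90 FPKM in controls (limma adjusted p = 0.586). Pdia2, Pdilt and Erp27, relatives known from pancreas or testis and named after their values were seen, stayed under 0.1 FPKM in all 6 libraries. Of Agr3, Agr2, Pdia2, Pdilt and Erp27, only Agr3 had a value above 1 FPKM in any library. Agr3 was chosen for its measured difference, and Pdia2, Pdilt and Erp27 for their low values. The choice thus fixed this contrast, which adds no support.

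Of 15 partners in oxidation and reduction, 15 were tested and 0 passed. Prdx4, the ER peroxiredoxin that hands oxidising power to PDIs, was at 44.1, 41.9 and 46.9 FPKM in cKO libraries 1, 2 and 3, and at 56.0, 54.5 and 49.0 FPKM in control libraries 1, 2 and 3. The groups were apart, with a log2 fold change of -0.26 (SE 0.07, limma adjusted p = 0.144). Qsox2, a sulfhydryl oxidase, and Ero1lb, an oxidase of PDIs, had log2 fold changes of -0.15 and 0.21 (limma adjusted p = 0.281 and 0.284).

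P4hb has the prolyl hydroxylase subunits P4ha1, P4ha2 and P4ha3 and the lipid transfer protein Mttp as partners, and 0 of the 4 passed. P4ha3 measured 2.06, 1.88 and 2.33 FPKM in cKO libraries 1, 2 and 3, and 3.51, 3.92 and 2.92 FPKM in control libraries 1, 2 and 3. Every cKO value was under every control value (log2 fold change -0.52, SE 0.11, limma adjusted p = 0.0848), while P4ha2 and P4ha1 had log2 fold changes of 0.11 and -0.022. With the loci of small RNAs left out of the fit, P4ha3 passed (limma adjusted p = 0.042, range over the alternatives 0.042 to 0.271).

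Of 8 partners of Pdia3, 6 had log2 fold changes above 0, with a median of 0.13, and 0 passed. Calreticulin (Calr) averaged 278.4 ± 12.8 FPKM in cKO and 242.5 ± 4.82 FPKM in controls, with groups apart (log2 fold change 0.20, SE 0.06, limma adjusted p = 0.172). Tap1, a peptide transporter for MHC class I, had a log2 fold change of 0.29, and B2m, the light chain of MHC class I, one of -0.22 (limma adjusted p = 0.196 and 0.265).

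Of 14 ER chaperone genes, 13 were tested, 10 lay above 0, and 0 passed (median log2 fold change 0.08). Hspa5, which codes for BiP, was at 150.1, 148.7 and 124.6 FPKM in cKO libraries 1, 2 and 3, and at 115.2, 115.6 and 113.4 FPKM in control libraries 1, 2 and 3. Every cKO value was above every control value, and cKO 3 was the nearest to the controls (log2 fold change 0.29, SE 0.08, limma adjusted p = 0.148). Manf, a secreted ER stress factor, and Sdf2l1, a BiP cofactor, also had groups apart, with log2 fold changes of 0.15 and 0.13 (limma adjusted p = 0.196 and 0.264).

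Of 15 genes of the unfolded protein response, the signalling system that raises ER folding capacity, 14 were tested, 11 lay above 0, and 0 passed (median log2 fold change 0.07). Xbp1, a transcription factor of that response, averaged 31.3 ± 2.38 FPKM in cKO and 25.8 ± 2.94 FPKM in controls (log2 fold change 0.28, SE 0.09, limma adjusted p = 0.214). Trib3 and Atf4, a target and a transcription factor of the response, had log2 fold changes of 0.25 and -0.16 (limma adjusted p = 0.232 and 0.335).

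**Figure D5:**
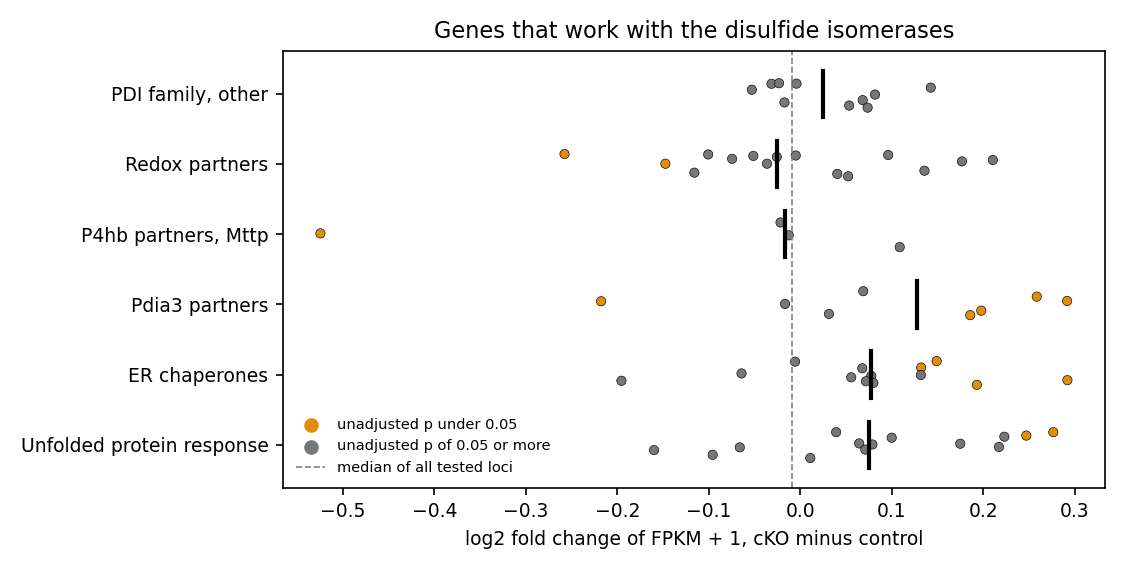
Log2 fold change of FPKM + 1, cKO minus control, of the 64 tested genes in 6 lists of PDI relatives and partners. Points are genes, orange where the limma p before adjustment was under 0.05 (14 of 64 genes, beside 17.6% of all tested loci), black bars are list medians, and the dashed line is the median of all tested loci at -0.0095.

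Genes of the epithelia in which Agr2 and Agr3 are known were read beside Agr3. Of 19 genes of mucous and secretory epithelium, Muc1 alone was tested (log2 fold change 0.16, limma adjusted p = 0.439), 9 stayed under 0.1 FPKM in every library, and 4 (Tff1, Tff2, Scgb1a1 and Scgb3a2) were at 0 in all 6. Of the 15 with any value above 0, the cKO mean was higher than the control mean for 10 and lower for 5. The summed level of the list was 5.80 to 6.91 FPKM in cKO and 4.58 to 5.09 FPKM in controls, and without Krt8, a keratin of simple epithelia, the sums overlapped, at 4.53 to 6.58 FPKM in cKO and 4.42 to 4.88 FPKM in controls. Krt8, the keratin gene Krt18, the cadherin gene Cdh1 and the mucin gene Muc2 were under the minimum for testing. They are named after their values were seen. Krt8 was at 1.27, 0.324 and 0.961 FPKM in cKO libraries 1, 2 and 3, and at 0.156, 0.211 and 0.166 FPKM in control libraries 1, 2 and 3. For Krt18 and Cdh1, too, every cKO value was above every control value. Krt18 was at 0.219 to 0.403 FPKM in cKO and 0.05545 to 0.175 FPKM in controls. Cdh1 was at 0.0617 to 0.131 FPKM in cKO and 0.00801 to 0.0394 FPKM in controls. Muc2 lay the other way, at 0.148 to 0.182 FPKM in cKO and 0.213 to 0.224 FPKM in controls. The part of these genes in the level of Agr3 was not tested.

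Of 16 genes of ciliated epithelium and ependyma, 11 were tested and 0 passed (median log2 fold change 0.13), and the list summed to 58.1 to 71.8 FPKM in cKO and 57.3 to 58.6 FPKM in controls, with overlap. Foxj1, the master regulator of motile cilia and named after its values were seen, was at 13.7, 8.52 and 12.9 FPKM in cKO libraries 1, 2 and 3, and at 10.7, 11.1 and 9.57 FPKM in control libraries 1, 2 and 3. Its groups overlapped, and the part of ciliated cells in the level of Agr3 was not tested. Mia, Rfx2 and Ccdc153 had groups apart with log2 fold changes of 0.53, -0.35 and 0.46 (limma adjusted p = 0.0904, 0.182 and 0.238). With the loci of small RNAs left out, Mia passed (limma adjusted p = 0.0384, range over the alternatives 0.0384 to 0.297).

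Other cell types were read from short marker lists. Bergmann glia and cerebellar neuron markers were present in every library, with list sums of 1993 to 2142 FPKM and 1191 to 1264 FPKM in cKO, and 2195 to 2271 FPKM and 1205 to 1265 FPKM in controls. Without Fabp7, which made up most of it, the Bergmann glia sum was 394 to 595 FPKM in cKO and 611 to 690 FPKM in controls. Over all 13612 tested loci, 0.573% passed. Of 10 Bergmann glia markers 2 passed, the receptor gene Gpr37l1 (log2 fold change -1.41, limma adjusted p = 0.011) and the bicarbonate transporter gene Slc4a4 (0.68, limma adjusted p = 0.0336). Of 11 neuron markers 1 passed, the calcium-binding protein gene Pvalb (-0.72, limma adjusted p = 0.0331). Log2 fold changes were below 0 for 9 of the 11 neuron markers and for 6 of the 10 Bergmann glia markers. At a limma p under 0.05 before adjustment, 4 neuron markers were lower and 0 higher. For Bergmann glia 4 were lower and 1 higher, beside 17.6% of all tested loci in either direction. The call of Gpr37l1 was lost without cKO 1, cKO 2 or control 2 (limma adjusted p = 0.0812, 0.0542 and 0.0536), and that of Slc4a4 without cKO 1, cKO 2, control 1 or control 2 (0.125, 0.117, 0.120 and 0.144). All 10 microglia markers had log2 fold changes above 0, and 9 had a limma p under 0.05 before adjustment, beside 17.6% of all tested loci. Of the 10, 1 passed, Csf1r (0.48, limma adjusted p = 0.0482). The calls of Csf1r and Pvalb were lost with any 1 of the 6 libraries left out, at limma adjusted p-values of 0.0616 to 0.195 and 0.0567 to 0.121. The sum of the microglia markers was 73.3 to 80.7 FPKM in cKO and 58.5 to 60.5 FPKM in controls. The sum of 10 endothelial markers was 101.5 to 104.9 FPKM in cKO and 75.2 to 93.0 FPKM in controls, and 0 passed. Without Mfsd2a, a lipid transporter gene, those sums overlapped, at 72.0 to 78.1 FPKM in cKO and 63.0 to 73.5 FPKM in controls. Sums of meningeal fibroblast markers (47.0 to 108.7 FPKM in cKO and 36.2 to 68.6 FPKM in controls) and of choroid plexus markers (14.4 to 37.4 FPKM in cKO and 19.9 to 28.0 FPKM in controls) overlapped. Of the 11 tested meningeal markers, 10 had log2 fold changes above 0 and 1 below, with a median of 0.68. Before adjustment, 3 of them were higher and 1 lower at a limma p under 0.05, and 0 passed. The part of these cell types in the levels of Agr3 or of the chaperones was not tested.

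The 5 tested loci most like Agr3 by Pearson's r of log2(FPKM + 1) over the 6 libraries were Xist (0.995), Ackr4 (0.994), Pdzd4 (0.991), the locus named Acsl3,Utp14b (0.990) and Tyro3 (0.990). These libraries form 2 separated groups for Agr3, so r mainly records a difference between the groups, and it is a description only. Ackr4, an atypical chemokine receptor, measured 1.78, 2.82 and 2.82 FPKM in cKO libraries 1, 2 and 3, and 0.129, 0.195 and 0.122 FPKM in control libraries 1, 2 and 3. As for Agr3, cKO 1 was the lowest of the cKO libraries. Ackr4 was named for its likeness to Agr3 over these same libraries, so the shared order adds no support. Pdzd4 and Tyro3 differed by far less, at cKO means of 58.0 and 26.9 FPKM and control means of 51.8 and 24.1 FPKM.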

How the data were processed

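The deposited table holds 1 value per locus and library, read here as FPKM. The unit is stated nowhere in the labels and was taken from the use of Cufflinks, the XLOC names and the range of values. CASAVA, TopHat, Cufflinks and mm10 are named per the submitters' processing notes. Tool versions, gene annotation, strand, read depth and between-library scaling: not given in the sources used here. Column sums ran from 497542 to 524474 FPKM. The title gave each library its number, and the description of cKO 1 carries the number 3 instead.

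Values were taken as log2(FPKM + 1), keeping loci that reached 1 FPKM in 3 or more of 6 libraries, and limma 3.58.1 (R 4.3.3, trend, moderated two-sided test) was fitted to all 13612. P-values were adjusted by Benjamini-Hochberg over all loci, with a threshold of 0.05. A fold change on this scale understates that of low genes. The code was tested on simulated data. Coordinates are from GENCODE M21 (GRCm38), promoters and neighbours from RefSeq GRCm38.p6. Other steps used Python 3.11.15 with pandas 2.3.3, numpy 2.4.6 and, for plots, matplotlib 3.10.9.

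The members, gene lists and alternatives were chosen with earlier results of these data known. The text names the members, Zeb2, the annotated neighbours, the 5 loci most like Agr3 and up to 3 genes with the smallest p per list. Other genes are said to be chosen after their values were seen. Alternatives were the replicate block, libraries left out, deposit and processing set as covariates, the first deposit alone, 2 pseudocounts, 2 filters, 2 scalings, and small-RNA or X and Y loci left out.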

Additional observations from a re-analysis of the deposited data

How the results depend on the processing

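Under all 18 alternatives 0 of the relatives of Agr3 passed. In 143 refits of the 8 tested relatives the smallest limma adjusted p was 0.281, and 129 refits kept the sign. The sign turned for P4hb with quantile normalization (0.0069), for Pdia4 in the first deposit only (0.48), for Pdia5 in the first deposit only (0.064) and with quantile normalization (0.023), and for Tmx1 in the first deposit only (-0.074). With 1 library left out, log2 fold changes ran from -0.037 to 0.0095 for P4hb, -1.08 to 0.355 for Pdia4, -0.045 to 0.030 for Pdia5, -0.037 to 0.054 for Txndc5 and -0.014 to 0.12 for Tmx1. The cause of these turns was not tested.

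The difference of Agr3 was 5.80 at a pseudocount of 0.1 and 3.72 at 0.5, and 2.77 to 2.99 over the settings at a pseudocount of 1. It could not be computed at a mean of at least 5 FPKM, a filter that also removes Pdia5.

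The count of loci called, 78 as reported, was 22 with the deposit as a covariate, 28 with no filter, 30 at a mean of at least 5 FPKM, 329 with small-RNA loci left out, and 21 to 55 with 1 library left out. Zeb2 passed with small-RNA loci left out (limma adjusted p = 0.0455, range over alternatives 0.0455 to 0.312), as did P4ha3 and Mia. Of the cell type markers, Ptgds, C1qa, C1qb, C1qc, Slco1a4, Mfsd2a and Aqp4 also gained a call there (limma adjusted p = 0.0266 to 0.0471). They are named after their values were seen. Slco1a4 and Aqp4 were lower in cKO, and the others were higher. Of 270 refitted list counts, 230 stayed within 1.5 times the reported count. Most of the 230 were lists with 0 called both as reported and in the refit, so the share says little about lists with calls. The call of Csf1r was lost in 14 of 18 alternatives and that of Slc4a4 in 8 of 18. Pvalb lost its call in 10 and Gpr37l1 in 4 of the 17 alternatives in which each was tested. The replicate numbers do not pair the libraries: same-numbered deviations correlated at -0.0268, 0.0373 and 0.0488 across loci, and not every library correlated best with its own number. With the replicate block 15 loci were called, and 0 relatives. Depth limits values near 0, where 1 step is the whole signal of Agr2.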

Other observations

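The reverse of the Agr3 pattern, at most 0.1 FPKM in every cKO library and at least 1 FPKM in every control, was met by 10 of 23793 loci (0.042%). Of these, 7 were loci of small RNAs and 3 were the Y-linked genes Kdm5d, Uty and Ddx3y. The small nucleolar RNA Snord65, named after its values were seen, was listed at 0 in every cKO library and at 588.7, 675.0 and 663.9 FPKM in control libraries 1, 2 and 3. No gene of the PDI family lists was among them.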
